A study of Saccharomyces cerevisiae with 18 samples.

Results

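The genes described here are 10 budding yeast genes of the cell wall and of the pathway that guards it: FKS1, GSC2, CRH1, CWP1, CWP2, CCW12, SED1, SPI1, SLT2 and RLM1. They were taken by name, each through probe sets that match that gene alone, and all 10 were among the 5656 genes that the arrays measured in this way and among the 5545 that were tested. RNA levels were measured on Affymetrix yeast S98 arrays in Saccharomyces cerevisiae cells growing exponentially in synthetic complete medium. The 18 arrays fell into 6 groups of 3, described by their labels as biological replicates from independent cultures. All strains had the W303-1A background, of mating type MATa, with the marker alleles ura3-1, leu2-3,112, his3-11 and trp1-1 and with ade2-1 and can1-100. The wild type carried nothing more, the deletion mutant was far1Δ (far1::his3), and the overexpressor carried the plasmid pTet-FAR1-15Myc, which expresses a Myc-tagged FAR1. Each strain was grown with glucose and with ethanol as the carbon source. The study asked how the dosage of FAR1, a cyclin-dependent kinase inhibitor known for the arrest of the cell cycle by mating pheromone, bears on the transcript pattern in each medium.

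The yeast cell wall is a net of beta-1,3-glucan with shorter beta-1,6-glucan and chitin, covered by mannoproteins that are mostly tied to the glucan through a remnant of their GPI anchor. The glucan chains are made at the plasma membrane by a synthase whose catalytic subunit is Fks1 in growing cells on glucose or its paralog Gsc2, also named Fks2, under stress, in poor carbon sources and in spore formation. Damage to the wall is sensed at the membrane and passed through the GTPase Rho1, protein kinase C and a kinase cascade to the MAP kinase Slt2, which activates the transcription factor Rlm1, and Rlm1 in turn drives many genes of wall proteins and of the pathway itself.

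The 10 genes had 23 single-gene probe sets. FKS1 had 8 and GSC2 had 7, with 1 more GSC2 probe set shared with IMO32 and left out, and the other 8 genes had 1 each. Levels are probe set intensities after quantile normalisation of all arrays, and changes are log2 ratios with their standard errors from a linear model fitted with limma to all 5545 genes, 3 arrays per group. A change was called where its Benjamini-Hochberg adjusted p over all tested genes lay below 0.05. The level of a probe set is compared only with the same probe set on other arrays. Where groups are said to lie apart without overlap, the share of all genes for which this holds was not counted.

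Several arrays bear on what follows. The targeted gene FAR1 had a deposited intensity of 17.9 to 29.3 on the wild-type arrays and of 4.1 to 7 on the deletion arrays in glucose, and of 556.9 to 1019.5 on the overexpression arrays in glucose. In ethanol, arrays 1 and 2 labelled deletion read 4.8 and 5.3 and arrays 1 and 2 labelled overexpression read 2554.1 and 2722.3, but array 3 labelled deletion read 2595.7 and array 3 labelled overexpression read 3.3, against their labels. Every ethanol value of these strains is therefore given for the arrays as labelled, and some results that rest on that pair are also given without it. On overexpression arrays 1 and 3 in glucose, actin had a log2 ratio of 3′ to 5′ signal of 8.06 and 8.87, against 0.323 to 1.04 on the other 16 arrays. For the hybridisation control BioDn, the 5′ probe set over the 3′ one was 0.169 to 0.231 on all 6 wild-type arrays and deletion array 1 in glucose. On the other 11 it was 0.369 to 0.575. All wild-type arrays thus lay below all overexpression arrays, and the deletion group in glucose was split (0.174, 0.476 and 0.369). The part of this control in the strain comparisons was not tested. Against the MATa label, the 4 alpha-cell genes summed to a deposited intensity of 545.3 to 3673.2 per array and the 7 a-cell genes to 9.7 to 35.9, none of them at 0 on any array. The alpha-cell sum was 1287.3 to 3673.2 in glucose and 545.3 to 922.6 in ethanol, and its part in the changes below was not tested.

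In ethanol, GSC2 rose about 4-fold in all 3 strains, and RLM1, SED1, CWP1 and CWP2 rose in all 3 as well, by less. RNA came from whole cultures, so a change in the share of expressing cells and a change in RNA per cell cannot be told apart. CRH1 rose in the deletion mutant and SPI1 fell in the wild type. FKS1, SLT2 and CCW12 did not pass the test in any strain. In the wild type, 5 of the 10 members rose and 1 fell, where 22.4% of all tested genes rose, 21% fell and 43.4% changed in either direction. In the deletion mutant 6 rose and 0 fell, with 21.7% of all genes higher, 21.2% lower and 43% changed. In the overexpressor 5 rose and 0 fell, with 17.3% of all genes higher, 22.9% lower and 40.1% changed. The median log2 change of the 10 members was 0.50 in the wild type, 0.57 in the deletion mutant and 0.52 in the overexpressor, and that of all tested genes was 0.00, -0.01 and -0.09. In turn, 0 of the 10 members passed in any comparison between strains in the same medium, or in either test of whether a strain's effect differed between media.

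**Figure D1:**
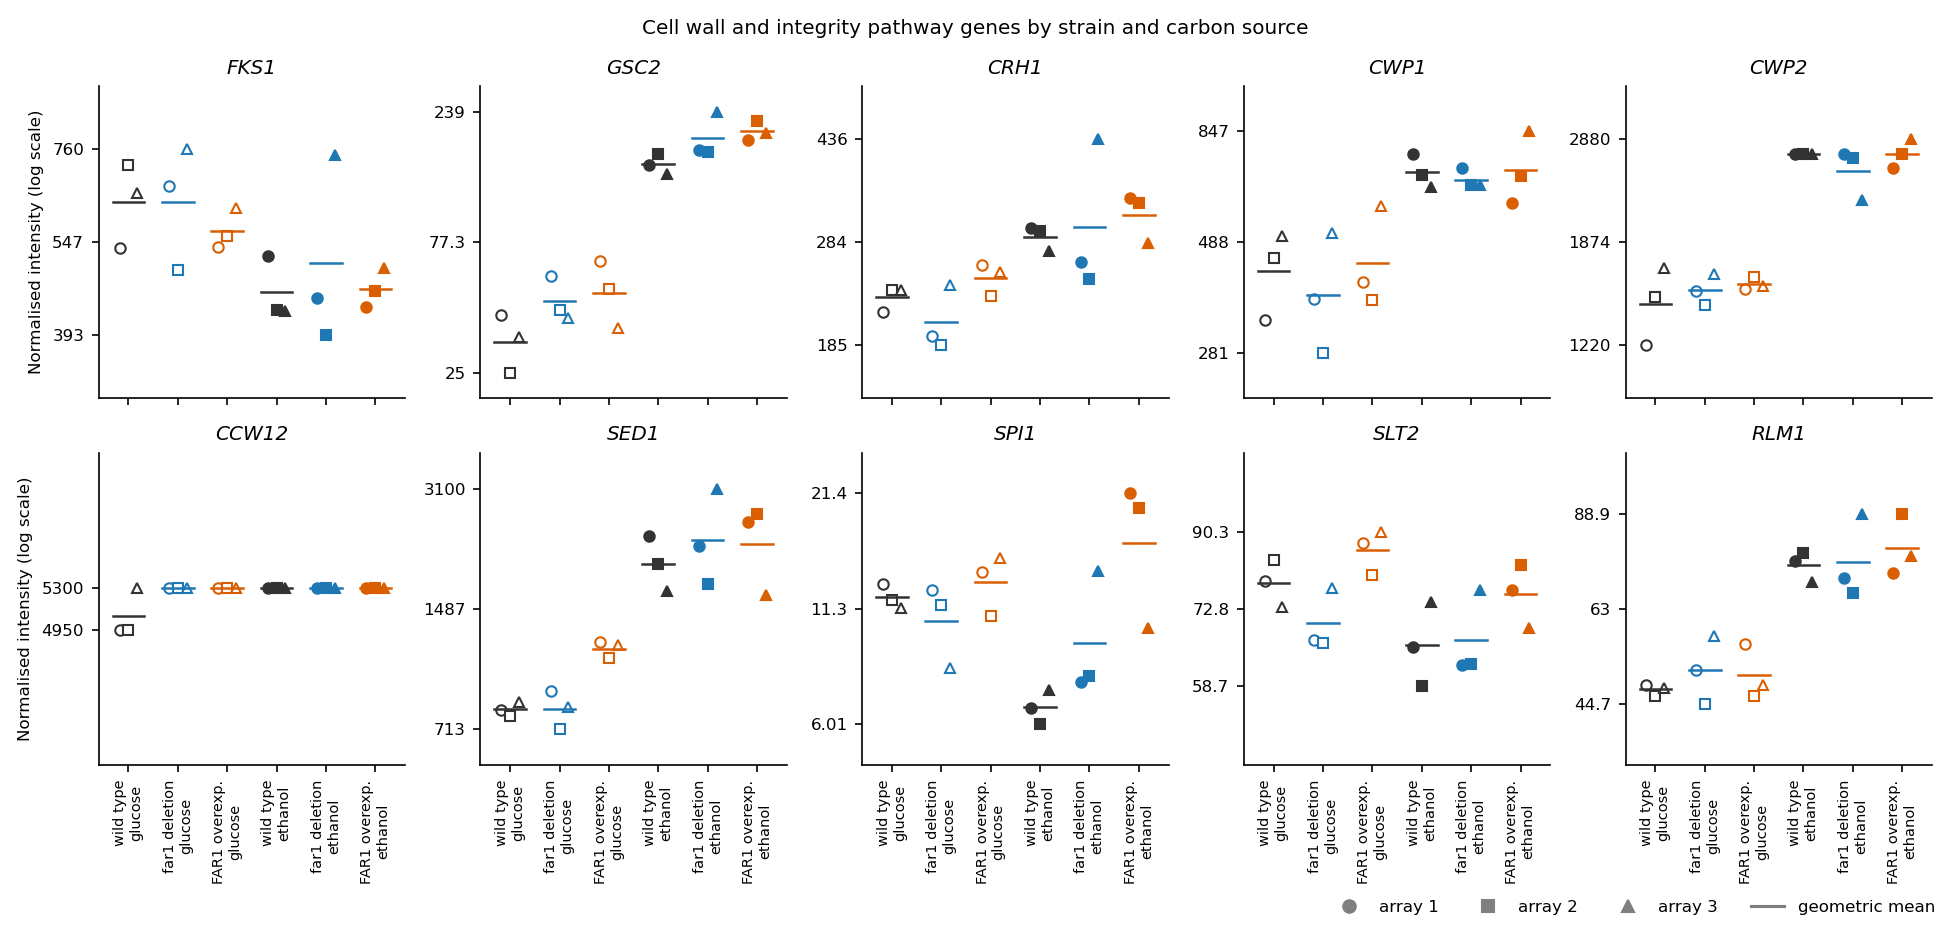
Normalised intensity (log scale, a different range in each panel) of the 10 genes on each of the 18 arrays, by strain and carbon source, with the geometric mean of each group of 3. Open symbols are glucose and filled symbols ethanol. GSC2, SED1, CWP1, CWP2, RLM1 and CRH1 lie higher in ethanol with no overlap in each strain, while CCW12 sits at the ceiling of the scale.

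The arrays of both media differed in shape, and the part of this in the differences between scales was not tested. The 99th percentile of the deposited intensity was 132 to 161 times the array's median on the 9 glucose arrays and 56.5 to 89.2 times on the 9 ethanol arrays, and quantile normalisation removes that difference. Taken as deposited, all tested genes had a median log2 change from glucose to ethanol of 0.661 in the wild type, 0.363 in the deletion mutant and 0.275 in the overexpressor, and -0.0754, -0.115 and -0.176 after each array was centred on its median. For every member the change minus this median is also given below, and it is the same on the deposited and the centred scale. GSC2 and RLM1 passed in all 3 strains under each of the 16 alternative settings tried, both scales included. SED1 did so in wild type and deletion mutant. The calls of CWP1 held as deposited and were lost with centred medians. Those of CWP2 were lost with centred medians in each strain, and as deposited in all but the wild type.

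**Figure D2:**
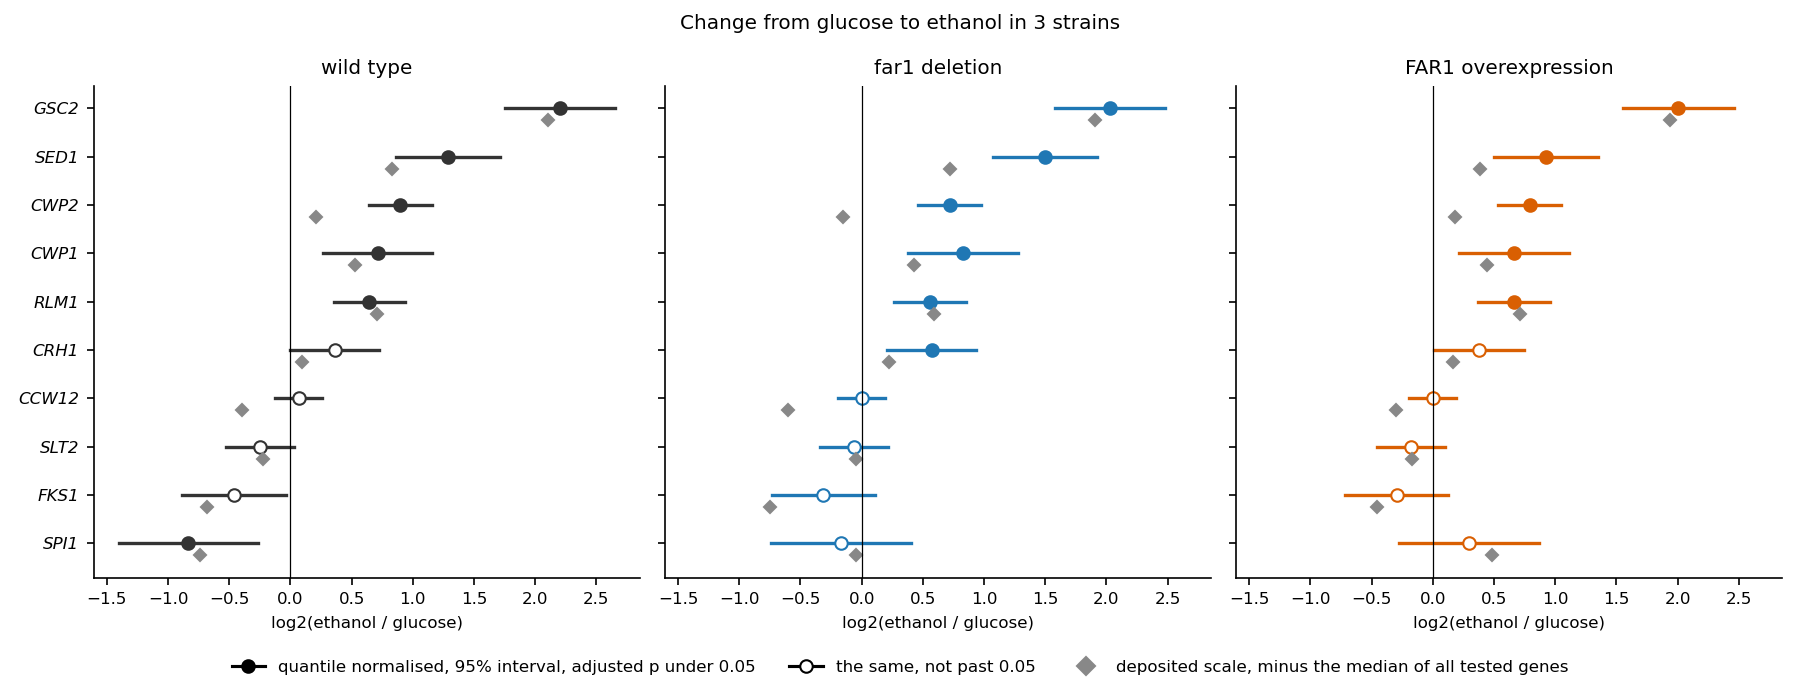
Log2 change from glucose to ethanol of the 10 genes in each strain, with 95% intervals from the limma model (circles, filled where the adjusted p was below 0.05) and, as grey diamonds, the change on the deposited scale minus the median of all tested genes. The diamonds lie close to the circles for GSC2, RLM1, SLT2 and SPI1 and well below them for CWP2 and SED1.

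GSC2 (YGR032W), the alternative catalytic subunit of glucan synthase, read 41.1, 25 and 34.1 on the wild-type glucose arrays and 151, 166 and 140 on the wild-type ethanol arrays. In the deletion mutant it read 57.5, 43 and 40.2 in glucose and 171, 169 and 239 in ethanol, and in the overexpressor 65.7, 51.7 and 36.7 in glucose and 188, 220 and 199 in ethanol. The lowest of all 9 ethanol arrays thus lay above the highest of all 9 glucose arrays. The log2 change was 2.20 ± 0.214 in the wild type (4.59-fold, limma adjusted p = 1.88e-07), 2.03 ± 0.214 in the deletion mutant (4.08-fold, adjusted p = 5.63e-07) and 2.01 ± 0.214 in the overexpressor (4.02-fold, adjusted p = 8.13e-07). The excess over the median gene, as deposited, was 2.10, 1.91 and 1.93.

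FKS1 (YLR342W), the catalytic subunit used in growth on glucose, ran the other way without passing the test. Its wild-type values were 535, 719 and 650 in glucose and 520, 430 and 428 in ethanol. The deletion mutant gave 667, 495 and 760 in glucose and 449, 393 and 743 in ethanol, and the overexpressor 537, 558 and 616 in glucose and 435, 460 and 498 in ethanol. The groups did not overlap for wild type or overexpressor, and for the deletion mutant ethanol array 3, whose FAR1 signal goes against its label, reached into the glucose range. The log2 change was -0.46 ± 0.200 in the wild type (adjusted p = 0.0722), -0.31 ± 0.200 in the deletion mutant (adjusted p = 0.224) and -0.30 ± 0.200 in the overexpressor (adjusted p = 0.261). Without the pair of ethanol arrays that goes against its labels the change passed in the wild type, at -0.47 (limma adjusted p = 0.0224), and in the deletion mutant, at -0.59 (adjusted p = 0.0126). No wild-type array was left out in that fit, and the spread is shared by all groups. In the deletion mutant the change passed without ethanol array 3 alone (adjusted p = 0.0113), and in the wild type without glucose array 1 (-0.58, adjusted p = 0.0484). Set against the median gene, as deposited, it was -0.68, -0.75 and -0.46, and with arrays centred on their medians it passed in all 3 strains, with adjusted p from 4.58e-04 to 0.00563.

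The other probe sets of both genes bear on these values, since FKS1 and GSC2 are similar in sequence and several of their probe sets carry the suffix _s_at, which marks probe sets that may bind more than 1 transcript. The brightest probe set of each gene, 9966_at for FKS1 and 4959_at for GSC2, gave the values above. For GSC2, 6 of 7 probe sets in the wild type and 7 of 7 in each of the other strains had a positive change in ethanol. Called higher were 3 in the wild type, 4 in the deletion mutant and 4 in the overexpressor, and 0 were called lower. The probe set 2211_s_at of GSC2 had a log2 change of 2.42 in the wild type, 1.57 in the deletion mutant and 3.46 in the overexpressor, and all 3 passed. The last rests on glucose values of 5.19, 15.1 and 2.1, low on overexpression arrays 1 and 3, and 2210_s_at of GSC2 read 3.16, 28.6 and 0.0417 on the same 3 arrays. For FKS1, 0 of 8 probe sets passed in the wild type and 0 of 8 in the deletion mutant, but 3 of 8 were called higher in the overexpressor, where 6 of 8 had a positive change. These too came with low glucose values on overexpression arrays 1 and 3, the pair that lacks actin 5′ signal: 2840_s_at of FKS1 read 0.182 on array 1 and 4.77 on array 3, but 287 on array 2, and 2841_s_at read 28.7 and 21.6 against 262. The brightest FKS1 probe set read 537 and 616 on the same arrays. The mean over probe sets gave FKS1 a log2 change of -2.01 between overexpression and wild type in glucose, where the brightest probe set gave -0.15, and that value is not used further.

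**Figure D3:**
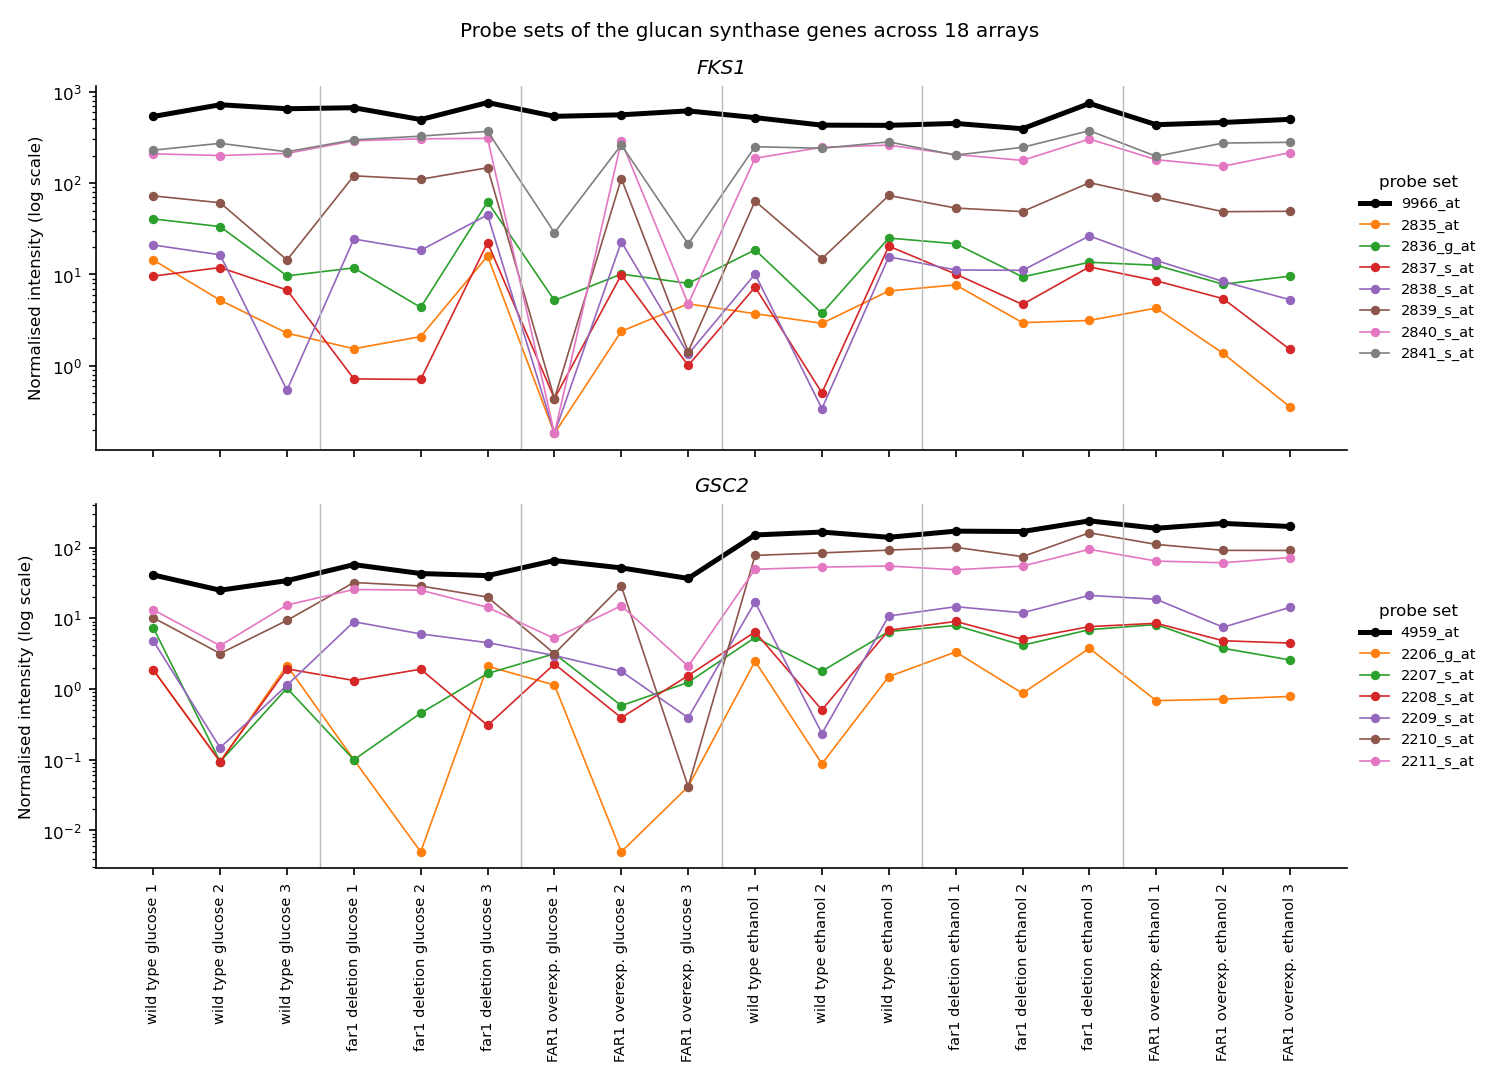
Normalised intensity (log scale) of the 8 FKS1 and 7 GSC2 probe sets on the 18 arrays in group order, with the brightest probe set of each gene as a thick black line. GSC2 probe sets step up at the ethanol arrays, and several FKS1 probe sets drop on overexpression arrays 1 and 3 in glucose while the brightest does not.

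CRH1 (YGR189C) encodes a transglycosylase that links chitin to beta-glucan, and its change was small. It read 212, 233 and 233 in glucose and 301, 297 and 274 in ethanol in the wild type. In the deletion mutant it read 192, 185 and 238 in glucose and 261, 244 and 436 in ethanol, and in the overexpressor 258, 227 and 251 in glucose and 341, 335 and 283 in ethanol. Groups did not overlap in any strain. The log2 change was 0.57 ± 0.173 in the deletion mutant (limma adjusted p = 0.0124), and 0.36 ± 0.173 (adjusted p = 0.101) and 0.38 ± 0.173 (adjusted p = 0.093) in the wild type and the overexpressor. Without the pair of arrays CRH1 passed in the overexpressor at 0.47 (adjusted p = 0.00809), and no longer in the deletion mutant, at 0.31 (adjusted p = 0.0621). It also passed in the wild type (adjusted p = 0.0155), with its change still at 0.36. No wild-type array was left out in that fit, and the spread is shared by all groups. The deletion call also went with deletion ethanol array 3 alone left out (0.31, adjusted p = 0.0743) or deletion glucose array 2 (0.50, adjusted p = 0.0538). Set against the median gene the changes were 0.09, 0.22 and 0.16.

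SED1 (YDR077W), the major structural wall protein of stationary-phase cells, rose in every strain. It read 802, 770 and 839 in glucose and 2320, 1960 and 1660 in ethanol in the wild type, and 897, 713 and 814 in glucose and 2180, 1730 and 3100 in ethanol in the deletion mutant. In the overexpressor it read 1210, 1100 and 1190 in glucose and 2530, 2660 and 1620 in ethanol. Every ethanol array lay above every glucose array of any strain. The log2 change was 1.29 ± 0.201 in the wild type (2.44-fold, limma adjusted p = 4.79e-05), 1.50 ± 0.201 in the deletion mutant (2.82-fold, adjusted p = 1e-05) and 0.92 ± 0.201 in the overexpressor (1.9-fold, adjusted p = 0.00131). Relative to the median gene on the deposited scale it was 0.83, 0.72 and 0.39, and the call in the overexpressor was lost on the deposited scale (adjusted p = 0.0519) and with centred medians (adjusted p = 0.419).

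CWP1 (YKL096W) and CWP2 (YKL096W-A) are GPI-anchored wall mannoproteins of adjacent genes. CWP2 read 1220, 1490 and 1680 in glucose and 2710 on each of the 3 ethanol arrays in the wild type. It read 1530, 1440 and 1640 in glucose against 2710, 2660 and 2240 in ethanol in the deletion mutant, and 1540, 1620 and 1560 against 2560, 2710 and 2880 in the overexpressor. Its log2 changes were 0.90 ± 0.123 (limma adjusted p = 1.14e-05), 0.72 ± 0.123 (adjusted p = 0.000126) and 0.79 ± 0.123 (adjusted p = 5.64e-05). CWP2 ranked between 11 and 137 among 9275 probe sets. Relative to the median gene on the deposited scale its changes were 0.21, -0.15 and 0.18. As deposited, only the wild-type call was left (adjusted p = 0.564 and 0.206 in the other strains). With arrays centred on their medians no call was left, and the deletion mutant's change turned to -0.27 (adjusted p = 0.298).

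CWP1 read 332, 451 and 503 in glucose and 757, 680 and 642 in ethanol in the wild type. It read 368, 281 and 510 against 704, 647 and 647 in the deletion mutant and 401, 366 and 584 against 593, 678 and 847 in the overexpressor. No ethanol array of a strain fell into its glucose range, although the overexpression arrays came close, at 584 and 593. The log2 changes were 0.71 ± 0.213 (limma adjusted p = 0.0116), 0.83 ± 0.213 (adjusted p = 0.00431) and 0.66 ± 0.213 (adjusted p = 0.0191). Relative to the median gene they were 0.53, 0.42 and 0.44 on the deposited scale. With centred medians no CWP1 call was left (adjusted p = 0.0695, 0.212 and 0.286). The wild-type call was lost without wild-type glucose array 1 (adjusted p = 0.0718). The overexpression call held in 11 of 16 alternatives. Among others, it was lost without glucose array 1 (0.071) or 2 (0.0804) or ethanol array 3 (0.0894) of that strain, all adjusted p.

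SPI1 (YER150W), a small wall protein related to Sed1 and known for induction in stationary phase and by weak acids, did not follow SED1. It was dim, ranking between 3818 and 6003 among 9275 probe sets. In the wild type it read 13, 11.9 and 11.4 in glucose and 6.57, 6.01 and 7.28 in ethanol, a log2 change of -0.83 ± 0.272 (limma adjusted p = 0.0194). In the deletion mutant it read 12.6, 11.6 and 8.19 in glucose and 7.58, 7.83 and 14 in ethanol (-0.17 ± 0.272, adjusted p = 0.659), and in the overexpressor 13.9, 10.9 and 15 in glucose and 21.4, 19.7 and 10.2 in ethanol (0.30 ± 0.272, adjusted p = 0.413). The groups overlapped in those 2 strains and not in the wild type. Set against the median gene as deposited, the changes were -0.74, -0.05 and 0.48. The wild-type change on the deposited scale itself was -0.08 and did not pass (adjusted p = 0.862). It also did not pass without wild-type glucose array 1 (adjusted p = 0.0558) or without wild-type ethanol array 2 (adjusted p = 0.0628).

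CCW12 (YLR110C), a small and abundant GPI-anchored mannoprotein, was the brightest probe set on 16 of the 18 arrays and the second brightest on the other 2, wild-type glucose arrays 1 and 2. Quantile normalisation therefore gave it 5300 on 16 arrays and 4950 on 2, and its normalised changes of 0.00 to 0.07 hold no information on its level. As deposited it ranged from 4065.7 to 6641.5, and relative to the median gene its changes in ethanol were -0.40, -0.60 and -0.30. With centred medians the deletion mutant's log2 change was -0.72 (limma adjusted p = 0.00775).

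The MAP kinase SLT2 (YHR030C) did not pass in any comparison. Its values were 78.7, 83.6 and 73.1 in glucose and 65.5, 58.7 and 74.3 in ethanol in the wild type. The deletion mutant gave 66.8, 66.2 and 77.2 against 62.2, 62.3 and 76.8, and the overexpressor 87.5, 80.1 and 90.3 against 76.7, 82.4 and 69. Its groups overlapped in each strain, with log2 changes of -0.25 ± 0.132 (limma adjusted p = 0.14), -0.07 ± 0.132 (adjusted p = 0.726) and -0.18 ± 0.132 (adjusted p = 0.304). The 95% interval in the wild type ran from -0.53 to 0.03. Set against the median gene as deposited, the 3 changes were -0.22, -0.04 and -0.17, although they had a positive sign before that shift of all genes was taken off. With centred medians the overexpressor's change of -0.35 passed (adjusted p = 0.0377).

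RLM1 (YPL089C), the transcription factor downstream of Slt2, rose in every strain. It read 47.9, 46 and 47.3 in glucose and 75.1, 77.1 and 69.5 in ethanol in the wild type. It read 50.5, 44.7 and 57.2 against 70.5, 66.7 and 88.8 in the deletion mutant and 55.5, 45.9 and 47.9 against 71.7, 88.9 and 76.5 in the overexpressor. The lowest of the 9 ethanol arrays lay above the highest of the 9 glucose arrays. The log2 changes were 0.65 ± 0.139 (1.56-fold, limma adjusted p = 0.00108), 0.56 ± 0.139 (1.48-fold, adjusted p = 0.00332) and 0.66 ± 0.139 (1.58-fold, adjusted p = 0.000981). Relative to the median gene on the deposited scale they were 0.71, 0.59 and 0.71, close to the normalised values.

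The strains were compared within each medium, and they differed in more than FAR1. The deposited intensity of HIS3 was 6.4 to 10.2 on the wild-type arrays and 127.2 to 340 on all arrays of both other strains. For TRP1 it was 6.9 to 31.9 against 186.6 to 663.1. These differences go with the strain, so their part in the comparisons cannot be told apart from that of FAR1 dosage. In glucose, 0 of 10 members passed between deletion and wild type, where 1.59% of all genes did. Of the 10 members 1, GSC2, had an unadjusted p below 0.05, and so had 777 of the 5545 tested genes. GSC2 had the largest difference, 0.50 ± 0.214 on the log2 scale (limma adjusted p = 0.31), and its groups overlapped. The other 9 members lay between -0.18 and 0.10. Between overexpression and wild type in glucose 0 of 10 passed, where 7.27% of all genes did. GSC2 stood at 0.60 ± 0.214 (adjusted p = 0.0953, groups overlapping) and SED1 at 0.54 ± 0.201 (adjusted p = 0.112), with every SED1 array of the overexpressor above every wild-type array. Both had unadjusted p below 0.05, and so had 1265 of the 5545 tested genes. The other 8 members lay between -0.15 and 0.13.

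The calls on these 2 genes in glucose depended on the setting. As deposited, GSC2 was at 1.11 (limma adjusted p = 0.0125) and SED1 at 0.95 (adjusted p = 0.0144), where the median of all genes was 0.494. With centred medians GSC2 was at 0.73 (adjusted p = 0.0317). The mean over its probe sets turned the GSC2 difference to -0.27 (adjusted p = 0.809), and 4 of its 7 probe sets had a positive difference. SED1 passed without the pair of ethanol arrays (0.56, adjusted p = 0.0173), a fit that left out no glucose array. Without the overexpression arrays 1 and 3, which lack actin 5′ signal, GSC2 stood at 0.65 (adjusted p = 0.386) and SED1 at 0.45 (adjusted p = 0.712), with 1 overexpression array left.

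In ethanol, 0 of 10 members passed between deletion and wild type (0.0721% of all genes passed) and 0 of 10 between overexpression and wild type (0.397% of all genes). With the deletion the members' changes ran from -0.10 to 0.49. Of the 10 members 0 had an unadjusted p below 0.05, where 379 of the 5545 tested genes had one. The largest of these changes were SPI1 at 0.49 ± 0.272 (limma adjusted p = 0.762) and GSC2 at 0.33 ± 0.214 (adjusted p = 0.832). With overexpression the members' changes ran from 0.00 to 1.25. Below SPI1, GSC2 stood at 0.41 ± 0.214 (adjusted p = 0.496), with its 3 overexpression arrays above all wild-type arrays, and SLT2 at 0.20 ± 0.132 (adjusted p = 0.634).

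SPI1 had the largest strain difference of any member, in ethanol. The 3 wild-type arrays read 6.01 to 7.28, and the arrays labelled overexpression 21.4, 19.7 and 10.2, all above them. The log2 difference was 1.25 ± 0.272 (limma adjusted p = 0.0522, unadjusted p = 0.000232). The 1 overexpression array with a low SPI1 value, array 3, is the one with almost no FAR1 signal, and the 1 deletion array with a high value, 14 on array 3, is the one with a FAR1 signal of 2595.7. Without that pair SPI1 was at 1.57 and passed (adjusted p = 5.26e-04), where 2% of all genes did, and it passed without overexpression array 3 alone (adjusted p = 0.00815). The change of this difference between media was 1.13 ± 0.384 (adjusted p = 0.222), and 1.45 without the pair (adjusted p = 0.0272, with 0.813% of all genes passing). The FAR1 signal of the overexpressor also differed, at 556.9 to 1019.5 in glucose and 2554.1 and 2722.3 on ethanol arrays 1 and 2. A part of the medium and a part of FAR1 dosage therefore cannot be told apart here. With the pair, 0 of 10 members passed in that difference of the overexpression effect, and 0.18% of all genes did. For the difference of the deletion effect, 0 of 10 members and 0% of all genes passed, with 466 of 5545 genes at an unadjusted p below 0.05, and SPI1 had the largest value of the 10, 0.67 ± 0.384 (adjusted p = 0.683).

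**Figure D4:**
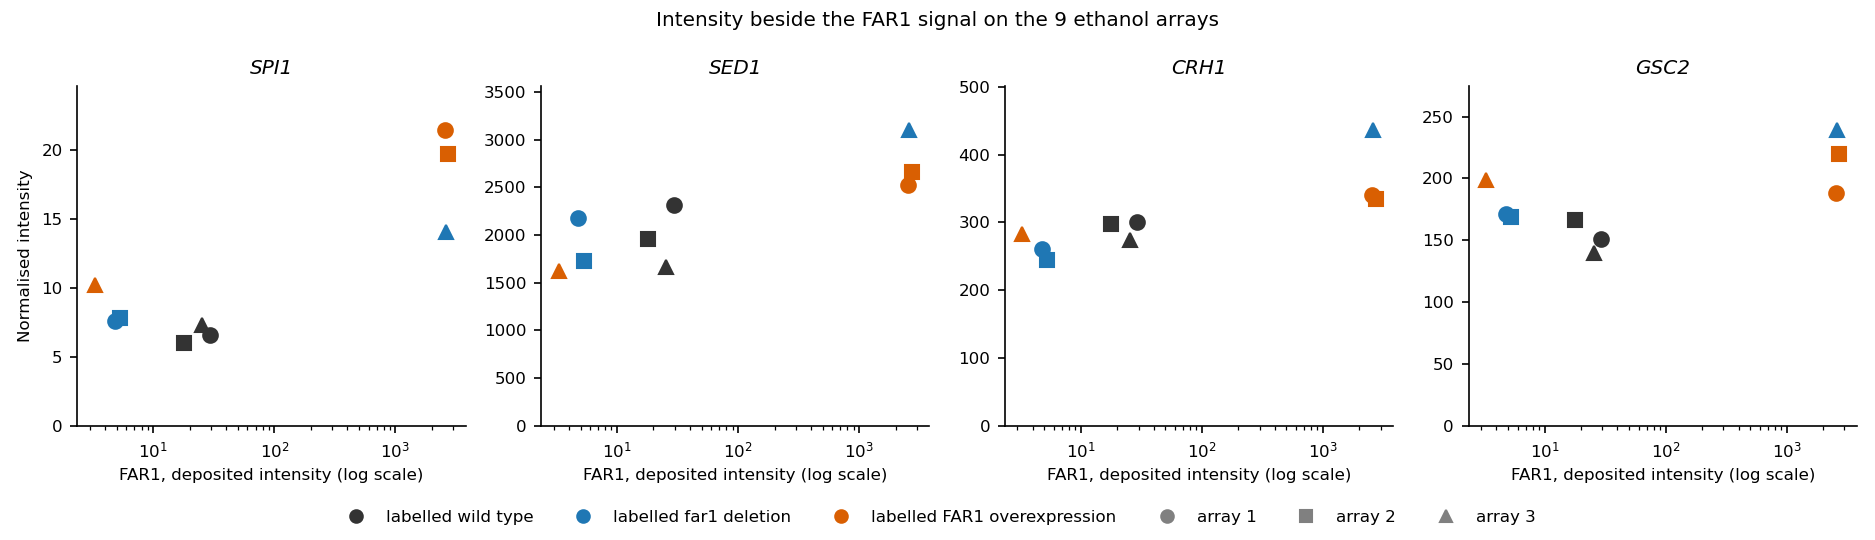
Normalised intensity of SPI1, SED1, CRH1 and GSC2 (linear scale from 0) against the deposited FAR1 intensity (log scale) on the 9 ethanol arrays, coloured by label. Array 3 labelled far1 deletion lies among the arrays with a high FAR1 signal and array 3 labelled FAR1 overexpression among those with a low one; SPI1 reads 14 on the former and 10.2 on the latter.

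The same pair of arrays stood at the edge of its labelled group for other members. For any gene, some array of a group of 3 is highest and some array lowest, so such places are common. Their share over all genes was not counted, and the places below are a description only. Array 3 labelled deletion in ethanol was the highest of its group for GSC2, SED1, SPI1, CRH1, FKS1, SLT2 and RLM1. Array 3 labelled overexpression was the lowest of its group for SED1, SPI1, CRH1 and SLT2. It was the highest of its group for FKS1 (498), CWP1 (847) and CWP2 (2880), and array 3 labelled deletion was the lowest of its group for CWP2 (2240). SED1 read 3100 on the former and 1620 on the latter, which were the highest and the lowest of the 9 ethanol arrays. CRH1 read 436 and 283. The ratio of bright to median intensity was also lowest of all arrays on array 3 labelled deletion, at 56.5, so that its bright values are raised by quantile normalisation, and the share of this in the values above was not tested.

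Across the 18 arrays, GSC2, CWP1, CWP2, SED1, CRH1 and RLM1 varied together, with Pearson r between 0.671 and 0.945 over their 15 pairs. The closest pairs were GSC2 with RLM1 (0.945), GSC2 with SED1 (0.931) and SED1 with RLM1 (0.92). FKS1 had negative r to all 6, from -0.126 with CRH1 to -0.588 with GSC2 and -0.612 with CWP2. All arrays share 1 medium contrast that changed over 40% of genes, so these values describe the set of arrays and carry no test. The same holds for the 3 genes most like each member over the 18 arrays. Those most like GSC2 were AMS1 (0.984), PLN1 (0.98) and CAT2 (0.976), and those most like SED1 were PUT1 (0.982), ATG3 (0.968) and DPL1 (0.968). RLM1 was closest to ACT1 (0.964), HAA1 (0.959) and IDH2 (0.958), CWP2 to ATP17 (0.984), COX20 (0.982) and MRA1 (0.98), CWP1 to YJL163C (0.942), GLG1 (0.939) and ATG19 (0.936), and CRH1 to RML2 (0.932), SCD5 (0.922) and PUT1 (0.918). The others had weaker matches, with SPI1 closest to HUG1 (0.914), YOR012W (0.864) and GPM3 (0.828), FKS1 to PSE1 (0.859), COP1 (0.855) and YEF3 (0.821), and SLT2 to ZRT3 (0.853), CSS3 (0.834) and RTP1 (0.812). CCW12, at the ceiling of the scale, was left out of this.

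A list of 114 other genes of the wall and the integrity pathway placed these members among their neighbours. Of these, 113 were measured and 111 tested, with FLO9 not measured and SPS2 and SPS22 below the filter on dim genes. In ethanol 36 rose and 18 fell in the wild type, 34 rose and 19 fell in the deletion mutant, and 29 rose and 15 fell in the overexpressor. Among all tested genes 22.4% rose and 21% fell for the wild type, 21.7% and 21.2% for the deletion mutant, and 17.3% and 22.9% for the overexpressor. The list's median log2 changes were 0.26, 0.14 and 0.15. With centred medians the overexpressor had 19 higher and 24 lower, and the deletion mutant had 22 higher. On the deposited scale, where most genes shift upwards, 60 rose and 2 fell in the wild type. Without overexpression arrays 1 and 3 in glucose 16 rose in that strain, in a fit with 1 glucose array left there, whose spread was taken from the other groups.

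By class, with no test between classes, 11 of 26 genes of glucan synthesis and remodelling rose in the wild type and 4 fell, 10 of 24 other GPI-anchored proteins rose and 3 fell, and 3 of 8 genes of the GTPase module rose and 0 fell. The mannan genes, whose products serve the addition of mannose to proteins, ran the other way, with 2 of 15 higher and 7 lower. Their median log2 change was -0.51 in the wild type. In the deletion and overexpressors 9 and 8 of these 15 fell, and 2 rose in each. Of the 5 PIR genes, whose proteins are bound to beta-1,3-glucan directly, 2 rose in the wild type, 2 in the deletion mutant and 4 in the overexpressor, and 0 fell. The transcription factor SWI4, which acts beside Rlm1 downstream of Slt2, had a log2 change of 1.33 in the wild type (limma adjusted p = 0.000177). SWI4 was dim there, at 2.23, 2.21 and 4.04 in glucose and 7.2, 6.12 and 9.28 in ethanol, below the median of each array. In the overexpressor it read 9.89, 9.9 and 10.3 in glucose and 12.7, 10.5 and 11.3 in ethanol.

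Among the largest rises, TIP1, a mannoprotein of the cold-shock family, went from 194 to 258 in glucose to 1470 to 1830 in ethanol in the wild type, a log2 change of 2.85 (limma adjusted p = 1.11e-08), with 2.47 and 2.85 in the other strains. KNH1, a paralog of the beta-1,6-glucan gene KRE9, rose by 2.36 (adjusted p = 2.39e-06) from 8.09 to 10.1 to 37.4 to 56.3. PIR3 had log2 changes of 1.92, 2.35 and 2.12 in wild type, deletion mutant and overexpressor (limma adjusted p = 0.000407, 5.56e-05 and 0.000184). ROM1, an exchange factor of Rho1, had log2 changes of 1.58, 2.38 and 0.92 in the same order (adjusted p = 2.63e-06, 1.43e-08 and 0.000883). CDA2, a chitin deacetylase gene of spore wall formation, had the largest log2 changes, 4.66, 3.74 and 4.29, but all its glucose values were at or below 0.405, near the pseudocount of 0.4, so their size rests on that pseudocount. The same holds for BAG7, a GTPase-activating gene (2.46 in the wild type), and CDA1 (2.80 in the deletion mutant).

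Among the largest falls, UTR2, a paralog of CRH1 also named CRH2, went from 378 to 510 in glucose to 103 to 128 in ethanol in the wild type. Its log2 changes were -1.94, -1.98 and -2.05 in the 3 strains (limma adjusted p = 1.1e-08, 8.36e-09 and 7.22e-09). MKC7, a GPI-anchored aspartyl protease gene, fell by 1.36 in the wild type and 1.34 in the overexpressor. In wild type and deletion mutant TIR1 fell by 1.35 and 1.26, and HOC1, a mannosyltransferase gene, fell by 1.27 in the wild type and 1.18 in the overexpressor. On the deposited scale the calls of TIR1 and HOC1 were lost. Further falls were those of the sensor gene WSC4 in the overexpressor (-1.15), of MNN4 in the deletion mutant (-1.37), and of CTS2 there (-2.01), a gene with all values at 3.12 or below. The MNN4 call held in 11 of 16 alternatives, and its glucose values in that strain were 13.5, 16.8 and 43.4.

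**Figure D5:**
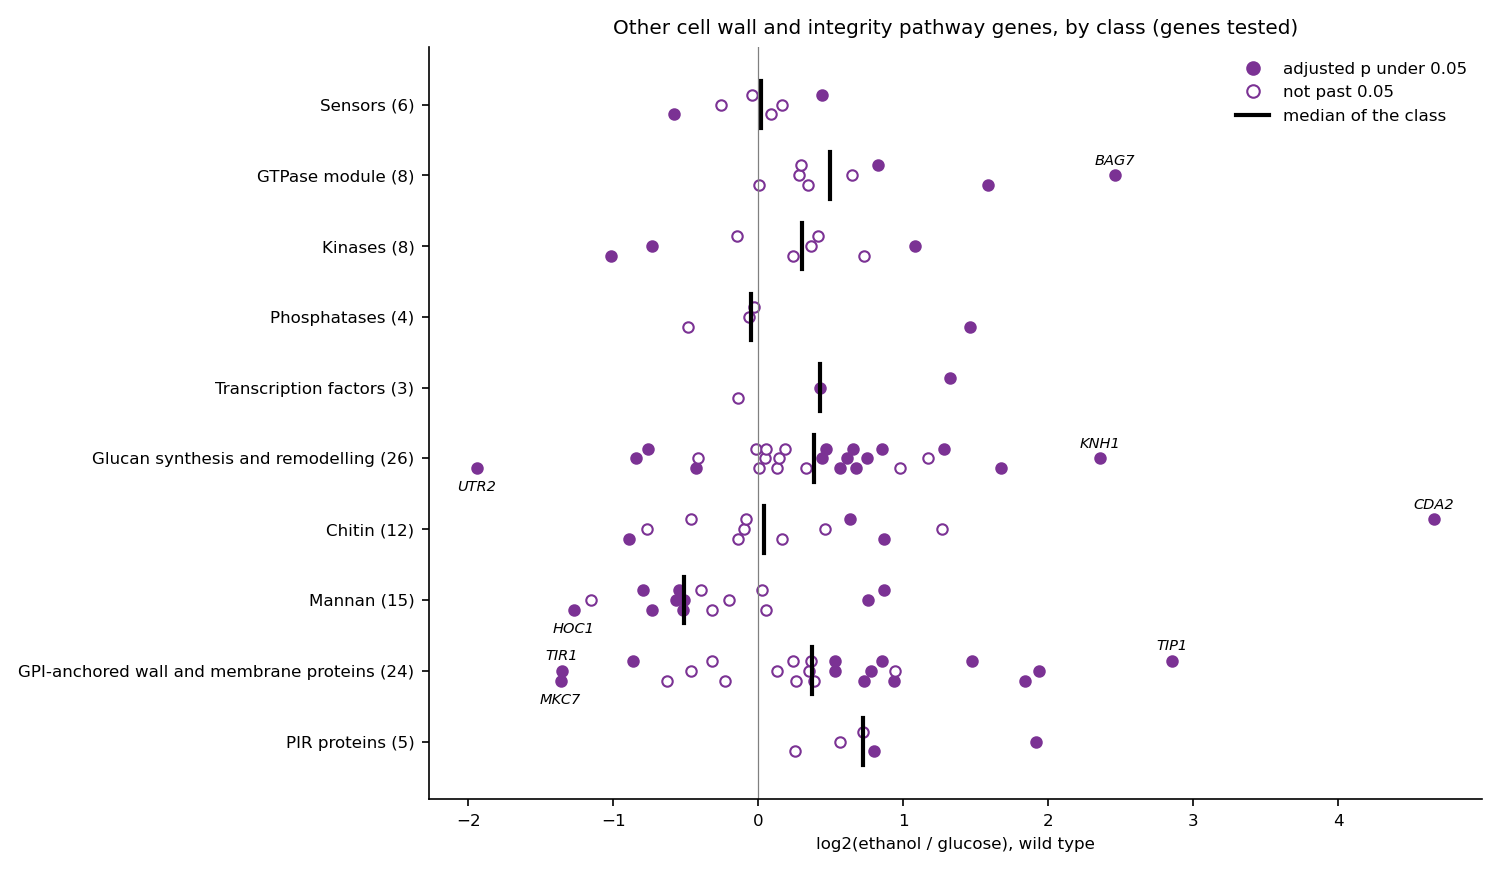
Log2 change from glucose to ethanol in the wild type of the 111 tested genes of the wider list, by class, with the class median as a black bar. Filled points passed an adjusted p of 0.05. The mannan class lies mostly left of 0, and the glucan, GTPase and PIR classes mostly right of it.

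Between strains, the wider list changed little. In glucose 4 of 111 genes rose with the deletion and 0 fell, where 1.59% of all genes passed: SKN1 (1.36, limma adjusted p = 0.00245), SWI4 (1.07, 0.0275), CHS6 (1.00, 0.0326) and SIM1 (0.68, 0.0372). With overexpression 6 rose and 2 fell, where 7.27% of all genes passed, a share close to that of the list. These were led by SWI4 (1.74, adjusted p = 0.000358), SKN1 (0.97, 0.0109), ROM1 (0.87, 0.0098) and DAN4 (0.84, 0.0185), with MNN2 (-0.94, 0.0119) and ANP1 (-0.72, 0.0211) lower. SKN1, a paralog of the beta-1,6-glucan gene KRE6, read 17.9, 19.5 and 22.7 on the wild-type arrays, 58, 50.9 and 47.2 on those of the deletion mutant and 41.6, 54.8 and 26.7 on those of the overexpressor. Both strains lay above every wild-type array, and both comparisons share those 3 wild-type arrays. Both strains also share the higher HIS3 and TRP1 signal, whose part in these changes was not tested. SWI4 read only 2.23, 2.21 and 4.04 on the wild-type arrays, below the array median, so the size of its changes rests on dim values. The numbers higher and lower with overexpression were 19 and 0 on the deposited scale, 1 and 0 with only the groups compared, and 3 to 8 and 1 to 5 with any 1 array left out. Of all genes, 911 of 5545, 101 of 5392 and 170 to 654 passed in these settings, in the same order. Without overexpression arrays 1 and 3, 1 array was left in that group and the spread came from the others. ROM1 was then at 0.49, DAN4 at 0.73 and MNN2 at -0.82, not past the threshold (adjusted p = 0.547, 0.365 and 0.2), SWI4 was at 1.71 (adjusted p = 0.0246), SKN1 at 1.43 (0.00971) and ANP1 at -1.18 (0.0144). With the deletion, 1 to 5 genes of the list rose when any 1 array was left out, where 29 to 126 of all genes passed. Over 16 alternatives SKN1 passed in 16, CHS6 in 11, SIM1 in 10 and SWI4 in 8. In ethanol 0 of 111 passed in either strain comparison by limma, where 0.0721% of all genes did with the deletion and 0.397% with overexpression. With the pair of arrays left out, 3 rose and 1 fell with overexpression, where 2% of all genes passed.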

How the data were processed

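RNA from 18 cultures was measured on single-colour Affymetrix S98 arrays. Biotin-labelled targets were made with a One-Cycle kit, per the labels' protocols. GCOS is named in the submitters' processing notes, with its version, algorithm and scaling not given in the sources used here. As their processed values, the authors deposited probe set intensity on a linear scale, 9335 values per array, with array medians of 8.5 to 23.8. Arrays carry no counts, and their number limits the precision. No genome build is named, so no positions are given, and no sequence is shown.

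A pseudocount of 0.4, at the 10th percentile of the deposited values, was added before log2, and the values were quantile normalised over the 9275 probe sets that are not controls. Of these, 6504 match a single gene of 5656, and each gene was represented by its probe set of highest mean. Genes above the 20th percentile of the array in at least 3 arrays were tested (5545). A model of 6 group means was fitted with limma 3.58.1 in R 4.3.3 (eBayes with trend, 12 residual and 5.60 prior degrees of freedom). It gave 9 comparisons, with Benjamini-Hochberg adjustment over all tested genes. The model was first tested on simulated data. Named were all 10 members, up to 4 largest rises and 4 largest falls past the threshold per comparison from the list of 114 genes, and the 3 genes of highest Pearson r to each member. The members and lists were chosen with earlier results of these data known. The deposited scale, centred medians, another pseudocount, other filters and models, a replicate block and left-out arrays were tried as alternatives. Replicate numbers were not used to pair the cultures, since the labels do not say that same-numbered cultures were grown together. Same-numbered arrays of different groups correlated in their deviations at -0.376 to 0.185 (45 pairs, median 0.000284). Arrays of different numbers did so at -0.232 to 0.312 (90 pairs, median -0.00354). Deviations within groups of 3 arrays cannot show whether cultures were paired.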

Additional observations from a re-analysis of the deposited data

How the results depend on the processing

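Between ethanol and glucose 5 to 8 of the 10 members passed in the wild type, 4 to 6 in the deletion mutant and 3 to 6 in the overexpressor over 16 alternatives each. Of all tested genes, 2042 to 2549 passed in the wild type and 1854 to 2544 in the deletion mutant over these alternatives. The lowest member count, 3 in the overexpressor, came on the deposited scale, where 1452 of 5545 genes passed. At most 2488 genes passed in that strain, with centred medians. Between overexpression and wild type in glucose, 0 members passed, but 2 did on the deposited scale, where 911 of 5545 genes passed. With centred medians 1 passed, without the pair of ethanol arrays 1, and with only the groups compared 1, where 101 of 5392 genes passed. With single arrays left out 0 to 1 passed, and 170 to 654 of all genes did (GSC2 at 0.82, limma adjusted p = 0.0445, without overexpression array 3). Between overexpression and wild type in ethanol 1 passed without the pair, where 111 of 5538 genes did. With single arrays left out 0 to 1 passed, and 2 to 68 of all genes did (SPI1, limma adjusted p = 0.00815, without overexpression array 3). In the difference of the overexpression effect 1 passed without the pair, where 45 of 5538 genes did. The change of CWP2 in the deletion mutant turned to -0.27 with centred medians. With the replicate number as a block 6, 6 and 5 members passed between media and 0 in the other 6 comparisons, so the block changed no call of a member. Causes of the shifts between settings were not tested.

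Counts over all genes moved more. On the deposited scale 2549 genes passed between media in the wild type, 2375 of them higher, against 2404 with 1242 higher. In the deletion mutant the counts were 1854 with 1478 higher, against 2382 with 1206 higher, and in the overexpressor 1452 with 1115 higher, against 2226 with 958 higher. Without overexpression glucose arrays 1 and 3 the last was 1328. Between strains in glucose the deletion gave 88 genes (29 to 141 over the alternatives) and overexpression 403, which became 911 on the deposited scale, 62 without arrays 1 and 3 and 101 with only the groups compared. In ethanol the deletion gave 4 (2 to 6) and overexpression 22, which became 111 without the pair and 2 without the intensity trend. The differences of effects gave 0 (0 to 2) and 10 (0 to 152, the latter without overexpression glucose array 2). CCW12 is limited by its place at the top rank of the arrays, and how far each member lies above background was not measured.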

Other observations

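Several pairs of paralogs in the wall differed in their change between media. The pairs were picked after their values were seen and carry no test as a set. FKS1 and GSC2 had log2 changes of -0.46 and 2.20 in the wild type. For the beta-1,6-glucan genes KRE9 and KNH1 the changes were 0.01 and 2.36, and for KRE6 and SKN1 -0.01 and 1.68. For the Rho1 exchange factors ROM2 and ROM1 they were 0.28 and 1.58. The second gene of each of these pairs passed in the wild type by limma, with adjusted p of 1.88e-07, 2.39e-06, 5.45e-06 and 2.63e-06, and the first did not (0.0722, 0.976, 0.972 and 0.0967). Relative to the median gene on the deposited scale, GSC2, KNH1, SKN1 and ROM1 stood at 2.10, 2.33, 1.72 and 1.58. In the deletion mutant KNH1 was at 1.63, ROM1 at 2.38 and SKN1 at 0.41 (adjusted p = 0.133), while ROM2 passed there at 0.41 (adjusted p = 0.0176). In the overexpressor KNH1, ROM1 and SKN1 were at 1.98, 0.92 and 0.54 (adjusted p = 0.0528 for SKN1). SKN1 was already higher in glucose in both of those strains. For the transglycosylases UTR2 and CRH1 the changes were -1.94 and 0.36, the former past the threshold. For SPI1 and SED1 they were -0.83 and 1.29, both past it.

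PIR3, a wall protein gene, also stood at the edge of its labelled groups on the pair of ethanol arrays whose FAR1 signal goes against the labels. As for the members, the share of all genes in such a place was not counted. It read 311 and 471 on overexpression arrays 1 and 2 and 195 on array 3, and 198 and 195 on deletion arrays 1 and 2 and 553 on array 3, with 154 to 194 in the wild type.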
